A study of Mus musculus with 6 samples.

Results

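The Glis genes Glis1, Glis2 and Glis3 and the Gli genes Gli1, Gli2 and Gli3 encode 6 related zinc finger transcription factors. Their Lsd1 peaks were those centred within the curated RefSeq span of each gene or 10 kb either side, on the mouse build mm10. The rule gave 87 of the 95852 Lsd1 peaks deposited for 3 libraries, at 6 of 26180 annotated genes.

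Lsd1 is a histone demethylase of repressor complexes, and the study mapped its binding by ChIP-seq in C2C12 cells, an established mouse myoblast line that forms myotubes in low serum and can be driven towards fat cells. All cells were collected on day 1 of differentiation. The groups were wild-type cells in myogenic medium with 2% horse serum, wild-type cells in an adipogenic cocktail of IBMX, indomethacin, dexamethasone, insulin, triiodothyronine and rosiglitazone, and LSD1(OE) cells in that same cocktail. LSD1(OE) is a stable lentiviral line, selected with G418, in which Flag-tagged LSD1 stands behind a tetracycline-dependent promoter and was induced with doxycycline. The line, the drug and the level of LSD1 cannot be told apart in it. Each group had 1 ChIP library, made with an antibody to the C-terminus of Lsd1, and 1 input library. No value below therefore has a replicate, no test between conditions was possible, and differences are between single libraries.

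The Gli proteins carry the hedgehog signal to DNA. Hedgehog ligands bind Patched receptors, which frees Smoothened, and the signal then lets Gli2 act as an activator and limits the processing of Gli3 to a repressor, while Gli1 is an activator and itself a target. Hedgehog signalling is known to restrain fat cell formation and to act in muscle precursors. The Glis proteins share the zinc finger domain but are best known elsewhere: Glis1 in reprogramming to pluripotency, Glis2 in keeping the kidney from fibrosis, and Glis3 in insulin-producing cells and the thyroid.

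Once duplicates were limited, 46155625 ChIP tags were left for myogenic, 63915769 for wild-type adipogenic and 55193310 for LSD1(OE) cells, and the authors' lists held 43426, 18893 and 33533 peaks. The wild-type adipogenic library thus had the most tags and the fewest peaks. The score of a peak is its Poisson p-value against the input as a negative log10, times 10, and every peak scored 50 or more. MACS had scaled ChIP tags up to the input by 1.90, 1.28 and 1.82 times, which raises scores least in the adipogenic library, so scores are given with tag counts. The weakest peaks of the 3 lists held 27, 35 and 30 tags. Where a library lists no peak, its signal stayed under the peak caller's threshold, which does not show that Lsd1 was absent.

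In all, 6 stretches of 300 bases around peak summits are shown, from sites whose peaks are described below. They are the upstream promoter of Glis1, 2 intronic Glis1 sites, the Gli2 promoter, an intronic Gli2 site, and the upstream promoter of Gli3. Capitals mark every match to the motifs searched on both strands: GACCACCCA (GLI), CAGCTG (an E-box bound by myogenic factors), TGANTCA (AP-1), GGAATG (TEAD), TGTGGT (RUNX) and the palindromic glucocorticoid receptor element. All are given on the plus strand of GRCm38.p6 (mm10), 5′ to 3′, and none overlaps an annotated exon. In the order below, they lie at chr4:107434235-107434534, chr4:107602713-107603012, chr4:107623975-107624274, chr1:119052789-119053088, chr1:118976803-118977102 and chr13:15463189-15463488.
Glis1 promoter: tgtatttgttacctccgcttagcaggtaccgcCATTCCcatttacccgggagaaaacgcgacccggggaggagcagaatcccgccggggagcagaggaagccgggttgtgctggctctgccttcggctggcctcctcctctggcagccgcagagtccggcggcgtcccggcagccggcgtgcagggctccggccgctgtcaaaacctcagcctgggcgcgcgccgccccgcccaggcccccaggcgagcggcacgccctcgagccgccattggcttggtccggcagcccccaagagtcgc
Glis1 +168 kb: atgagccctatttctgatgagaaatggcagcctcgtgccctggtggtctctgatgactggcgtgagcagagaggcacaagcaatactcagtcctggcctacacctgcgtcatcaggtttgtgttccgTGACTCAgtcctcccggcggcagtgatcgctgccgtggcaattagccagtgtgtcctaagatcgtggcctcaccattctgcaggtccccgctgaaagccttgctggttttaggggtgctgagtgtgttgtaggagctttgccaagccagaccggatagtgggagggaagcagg
Glis1 +190 kb: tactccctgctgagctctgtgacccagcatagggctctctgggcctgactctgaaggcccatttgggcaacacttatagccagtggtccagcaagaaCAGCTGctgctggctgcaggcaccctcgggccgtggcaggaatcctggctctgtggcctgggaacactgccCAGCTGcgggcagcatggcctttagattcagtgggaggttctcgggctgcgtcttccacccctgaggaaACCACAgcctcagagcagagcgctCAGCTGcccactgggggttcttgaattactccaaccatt
Gli2 promoter: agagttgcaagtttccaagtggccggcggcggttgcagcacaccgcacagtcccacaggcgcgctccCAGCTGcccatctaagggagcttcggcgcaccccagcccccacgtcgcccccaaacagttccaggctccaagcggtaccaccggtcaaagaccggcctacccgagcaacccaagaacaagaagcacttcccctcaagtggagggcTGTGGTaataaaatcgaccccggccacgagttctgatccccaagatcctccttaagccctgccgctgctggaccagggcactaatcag
Gli2 +77 kb: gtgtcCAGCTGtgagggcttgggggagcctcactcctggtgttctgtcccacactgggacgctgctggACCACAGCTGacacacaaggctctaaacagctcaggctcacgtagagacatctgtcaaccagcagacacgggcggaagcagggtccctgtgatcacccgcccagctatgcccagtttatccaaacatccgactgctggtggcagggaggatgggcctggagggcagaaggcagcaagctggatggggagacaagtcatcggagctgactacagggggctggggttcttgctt
Gli3 promoter: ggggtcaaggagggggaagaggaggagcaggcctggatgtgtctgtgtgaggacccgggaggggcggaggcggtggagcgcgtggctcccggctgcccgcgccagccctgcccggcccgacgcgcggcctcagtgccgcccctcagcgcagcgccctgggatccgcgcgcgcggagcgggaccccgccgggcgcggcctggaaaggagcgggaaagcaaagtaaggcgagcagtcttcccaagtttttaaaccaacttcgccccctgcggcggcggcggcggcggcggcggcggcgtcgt

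The promoter windows of Glis1 and Gli3 are rich in CpG. The Glis1 window has a GC content of 70.3% and 31 CpG dinucleotides, and the Gli3 window 74.3% and 40. The Glis1 promoter window holds 1 TEAD match, and the Gli3 window none of the 6 motifs. The Glis1 window at +190 kb holds 3 E-boxes and 1 RUNX match, and the window at +168 kb 1 AP-1 match. Matches differ with the library whose summit is used. The wild-type adipogenic window at +168 kb also holds an E-box, and the LSD1(OE) window at the Gli3 promoter a RUNX match. The myogenic window at the Glis1 promoter holds no TEAD match. The Gli2 promoter window holds 1 E-box and 1 RUNX match, and the Gli2 site at +77.0 kb 2 E-boxes and 1 RUNX match, which shares bases with an E-box. A match describes letters and is no measured binding site.

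Lsd1 peak numbers were highest at Glis1 and Glis3 in LSD1(OE) cells. These genes held 16 and 17 peaks in LSD1(OE) cells, against 7 and 6 in myogenic and 5 and 3 in wild-type adipogenic cells. Gli2 held 4 in LSD1(OE), 3 in myogenic and 1 in wild-type adipogenic cells. Glis2 held 4 in each library. Gli1 held 4, 1 and 2 peaks in myogenic, adipogenic and LSD1(OE) cells, and Gli3 held 3, 1 and 2. Over the 6 genes this made 27, 15 and 45 peaks.

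**Figure D1:**
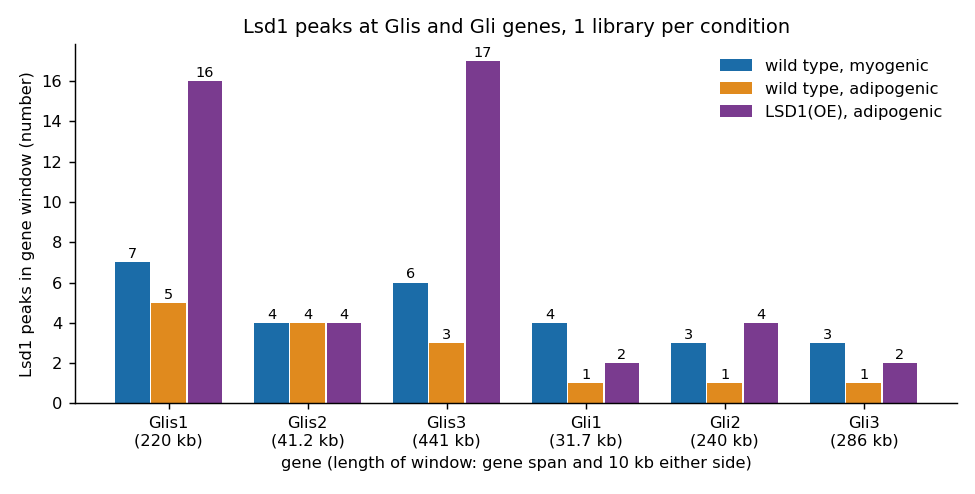
Number of Lsd1 peaks (y axis) centred in the window of each gene (x axis, with the length of the window), with 1 bar per library. Glis1 and Glis3 have 16 and 17 LSD1(OE) peaks, and Glis2 has 4 in each library.

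All 6 genes held a peak in every library, where 62.5% (myogenic), 41.2% (adipogenic) and 53.9% (LSD1(OE)) of all genes did. Long genes catch more peaks, and 4 of the 6 genes exceed 100 kb. Set beside all 2432 genes of at least 100 kb, whose median numbers of peaks per 100 kb of window were 1.15 (myogenic), 0.386 (adipogenic) and 0.743 (LSD1(OE)), Glis1 held 3.18, 2.27 and 7.26. Glis3 held 1.36, 0.680 and 3.85, and so lay above these medians in each library as well. Gli2 held 1.25, 0.417 and 1.67, and Gli3 1.05, 0.349 and 0.699, the last under the medians in each library. The median over the 6 genes was 2.27, 1.47 and 5.08 peaks per 100 kb, beside 2.38, 0 and 1.17 over all genes. Pooled over the 6 windows, which the long genes dominate, it was 2.14, 1.19 and 3.57, beside 2.99, 1.35 and 2.27 over all windows. Of the 2432 genes of at least 100 kb, 3.41% held as many LSD1(OE) peaks as Glis1 and 2.84% as many as Glis3. As many as Glis1 held in myogenic and wild-type adipogenic cells were found at 22.8% and 12.4% of these genes, and as many as Glis3 at 28.0% and 24.4%. These shares compare numbers of peaks without matching length, and the windows of Glis1 and Glis3 were 220 and 441 kb long.

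Peak numbers at Glis1 were 2.29 times and at Glis3 2.83 times as high in LSD1(OE) as in myogenic cells. A rule chosen after these values were seen asked for at least 2 times as many, among genes with at least 5 peaks in both lists together, and 6.69% of 6155 genes met it. Against wild-type adipogenic cells, the numbers were 3.20 times as high at Glis1, 5.67 at Glis3 and 4.00 at Gli2. A ratio of at least 3, chosen in the same way, was met by 16.4% of 3818 genes. Gli2 met this ratio with 5 peaks in all.

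Promoter peaks, centred within 2000 bp of a start site, were present at 5 of the 6 genes in myogenic cells, 3 in wild-type adipogenic cells and all 6 in LSD1(OE) cells. The shares over all genes were 46.8%, 27% and 37.3%. Glis1, Glis2 and Gli1 had one in all 3 libraries, as did 23.5% of genes. Glis3 and Gli3 had one in myogenic and LSD1(OE) cells and lacked it in wild-type adipogenic cells, a pattern of 10.8% of genes. Gli2 had one in LSD1(OE) cells alone, as did 2.59% of genes.

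Glis1 lies on chromosome 4 from 107434719 to 107635059 on the plus strand and has 11 exons. At its promoter the myogenic peak held 61 tags at a score of 162, centred 244 bp upstream of the start site. The wild-type adipogenic peak, 278 bp upstream, held 73 tags at a score of 115. The LSD1(OE) peak was centred on the start site and reached further into the gene, with 152 tags and a score of 542. Scaled to length and depth, these were 1.29, 1.19 and 1.61 tags per kb of peak and per 1000000 filtered ChIP tags, a unit called density from here on. The LSD1(OE) density was thus the highest, at 1.36 times the wild-type adipogenic density (exact 95% interval 1.02 to 1.82, counting error only) and 1.25 times the myogenic density (0.922 to 1.71). The 2 wild-type densities differed by less than counting error, with a ratio of adipogenic to myogenic of 0.920 (0.646 to 1.31). Over all regions of the series with peaks in both libraries compared, the medians of these ratios, in this order, were 1.09, 0.879 and 0.800.

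The strongest Lsd1 site of Glis1 was not the promoter but an intronic region about 190 kb into the gene, in intron 7, in all 3 libraries. It held 144 tags in myogenic, 180 in wild-type adipogenic and 214 in LSD1(OE) cells, at scores of 570, 451 and 1010. With tags not scaled up the scores were 301, 353 and 553, so that the order of the wild-type libraries turned while LSD1(OE) stayed highest. The densities were 1.73, 1.60 and 1.99. LSD1(OE) stood at 1.24 times the wild-type adipogenic density (1.02 to 1.52) and 1.16 times the myogenic density (0.931 to 1.44). Sequence at its summit is the Glis1 +190 kb window with 3 E-boxes.

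Another intronic site, 168 kb into the gene in intron 4, appeared in both adipogenic libraries and had no myogenic peak. It held 125 tags at a score of 243 in wild-type adipogenic and in LSD1(OE) cells 166 tags, scoring 670. The latter density was 1.29 times the wild-type adipogenic one (1.02 to 1.64). At 119 kb, in intron 2, the same libraries had weaker peaks of 49 and 64 tags, whose densities differed by less than counting error (ratio 1.27, 0.861 to 1.88).

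Of the Glis1 regions, 3 that all lie in intron 2 had peaks in myogenic and LSD1(OE) cells and none in wild-type adipogenic cells. They lay 33.8, 61.8 and 68.3 kb into the gene. Their myogenic peaks held 63, 61 and 40 tags and their LSD1(OE) peaks 44, 74 and 73. The ratios of LSD1(OE) to myogenic density were 0.750, 0.946 and 1.10, and all 3 intervals included 1.

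Of the 19 Glis1 regions, 9 had a peak in LSD1(OE) cells alone. The strongest, a broad peak of 196 tags 65.9 kb into the gene in intron 2, scored 496. The next 2, at 194 and 18.5 kb, held 73 and 62 tags at scores of 159 and 128, and the peak at 159 kb held 64 tags at a score of 123. The other 5, at 187, 122, 57.9, 63.1 and 133 kb, scored from 52.8 to 99.4 with 35 to 53 tags, near the threshold of 50. Single-library regions of the wild-type cells were weak as well. Myogenic cells alone had peaks at 23.0 and 188 kb, with 42 and 32 tags, the latter abutting the LSD1(OE) peak at 187 kb without overlap, and wild-type adipogenic cells at 142 kb, with 54 tags. Of the LSD1(OE) peaks of Glis1, 6 of 16 lie nearer to the start site of Dmrtb1, which lies beyond the end of Glis1, and they are assigned to Glis1 by position only.

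**Figure D2:**
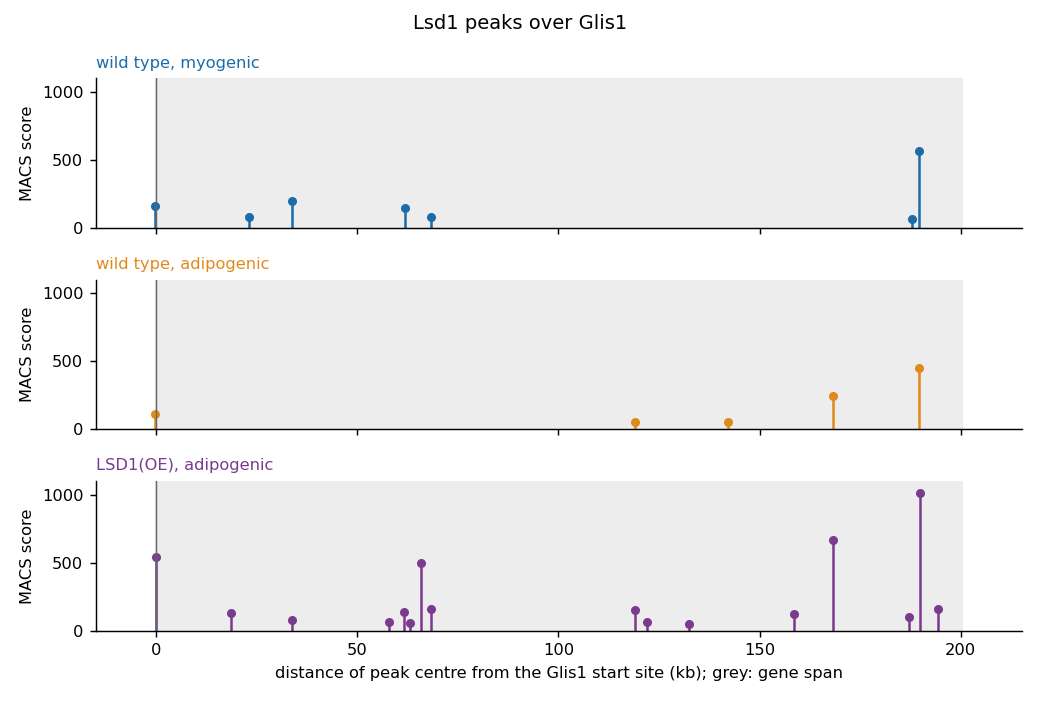
MACS score (y axis) of each Lsd1 peak against the distance of its centre from the Glis1 start site in kb (x axis), with 1 panel per library and the gene span in grey. The region near 190 kb is the highest in each panel, at 570, 451 and 1010, and the LSD1(OE) panel holds the most peaks, 16.

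Glis3 is the longest of the 6 genes, 421 kb on the minus strand of chromosome 19 from 28258851 to 28680077. Its promoter held 160 myogenic tags at a score of 586, centred 846.5 bp into the gene, and 137 LSD1(OE) tags at a score of 381, centred 157 bp upstream. Wild-type adipogenic cells had no peak centred within 2000 bp and were close to one on both sides. Their nearest peaks were centred 2581.5 bp downstream (106 tags, score 177) and 3326.5 bp upstream (69 tags, score 84.4). The downstream peak lies 728.5 bp from the start site of D930032P07Rik, a noncoding RNA gene on the opposite strand, and LSD1(OE) cells had a peak of 91 tags there too. Peaks around the start site chained into 1 region with a peak in all 3 libraries, but the adipogenic peak covers the downstream stretch and the myogenic peak the promoter, so their densities do not compare the same sequence. Over the downstream stretch the adipogenic and LSD1(OE) peaks had densities of 1.25 and 1.32. Upstream, at −2.94 kb, both adipogenic libraries had a peak, and the ratio of LSD1(OE) to wild-type density was 1.15 (0.854 to 1.57).

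Along the rest of Glis3, the LSD1(OE) peaks were many and weak. Of its 17 peaks in that library, 10 scored under 100. Of the 19 Glis3 regions, 12 were found in LSD1(OE) cells alone, with a median score of 72.2 and a highest of 204, for a peak of 98 tags 396 kb into the gene. A region 302 kb into the gene, in intron 3, had a peak in all 3 libraries, of 33, 72 and 63 tags. These peaks overlap only in part, with lengths of 632, 980 and 961 bp. Their densities of 1.13, 1.15 and 1.19 differed by less than counting error but do not compare the same sequence. Peaks far into the gene lie nearer to the start sites of Rfx3 or D930032P07Rik than to that of Glis3, as did 15 of the 17 in LSD1(OE) cells.

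Gli2, the main activator of the hedgehog response, lies on the minus strand of chromosome 1 from 118834061 to 119053619. Its promoter peak of 97 tags and a score of 216 was found in LSD1(OE) cells alone, centred 432 bp into the gene in intron 1. The strongest Gli2 sites lay in intron 2. At +71.7 kb myogenic cells held 67 tags at a score of 163 and LSD1(OE) cells 212 tags at a score of 685, with no wild-type adipogenic peak. The LSD1(OE) peak was also wider, and the density was 1.24 times the myogenic one (0.938 to 1.66). At +77.0 kb all 3 libraries had a peak, of 39 tags in myogenic, 75 in wild-type adipogenic and 151 in LSD1(OE) cells, at scores of 53.0, 96.9 and 542.

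This Gli2 site had the highest ratios of LSD1(OE) density among the regions of the 6 genes with peaks in both libraries compared. They were 1.48 against wild-type adipogenic cells (1.12 to 1.98) and 1.58 against myogenic cells (1.10 to 2.31). The 2 wild-type densities differed by less than counting error, with a ratio of 1.07 (0.714 to 1.61). All Gli2 peaks outside the promoter lie nearer to the start site of Mir6346, a microRNA gene annotated within Gli2, than to that of Gli2. The remaining Gli2 peaks were a myogenic one of 36 tags at +59.9 kb and an LSD1(OE) one of 41 tags at +159 kb.

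Gli3, which serves mainly as the hedgehog repressor, lies on the plus strand of chromosome 13 from 15463723 to 15730026. Unlike at Glis1 and Gli2, its promoter signal was highest in myogenic cells, with 154 tags and a score of 553, centred 50 bp into the gene. LSD1(OE) cells held 95 tags there at a score of 202. The density ratio of LSD1(OE) to myogenic cells was 0.674 (0.517 to 0.876). Wild-type adipogenic cells had no promoter peak. Their only Gli3 peak lay 42.0 kb into the gene in intron 2, with 65 tags over 965 bp, where myogenic cells held 27 tags over 562 bp. Over these unlike lengths the densities were 1.05 and 1.04 (ratio 1.01, 0.637 to 1.65), which does not show equal signal. A further peak each was found in LSD1(OE) cells at +161 kb (42 tags) and in myogenic cells at +197 kb, in the coding part of exon 9 (31 tags).

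**Figure D3:**
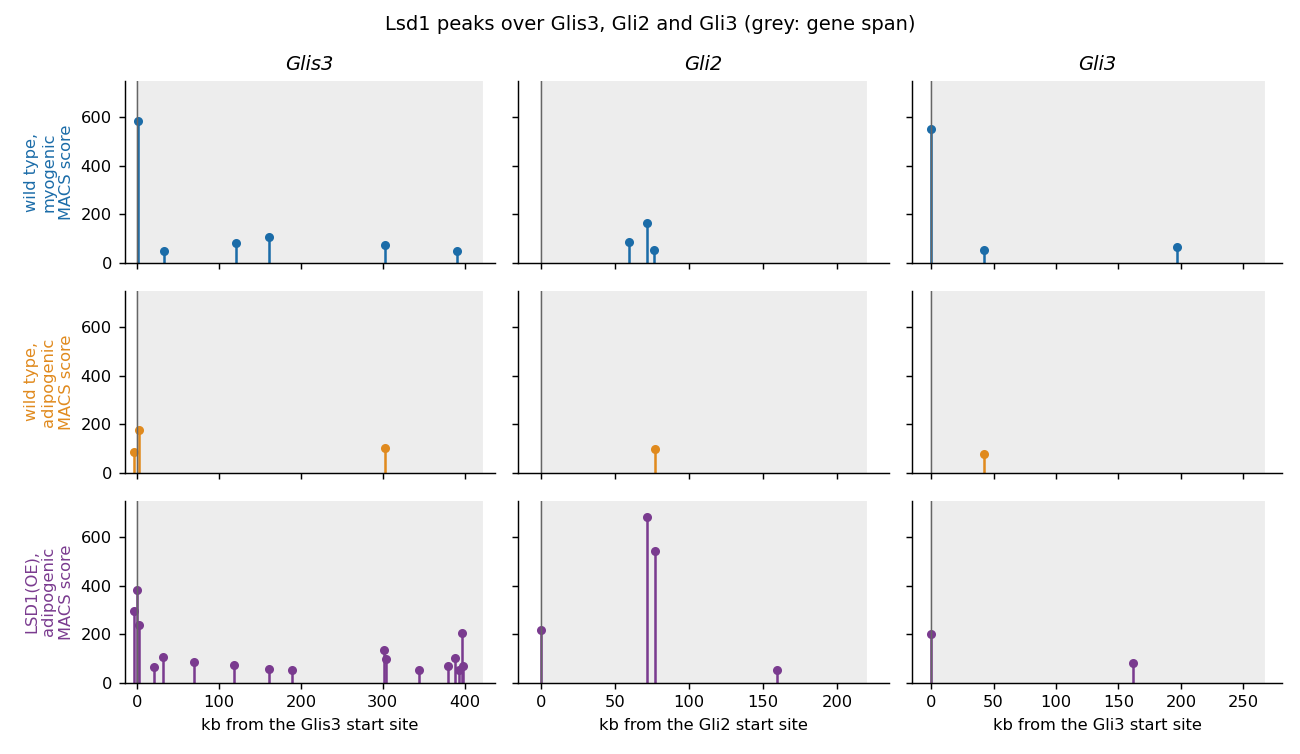
MACS score (y axis) of each Lsd1 peak against the distance of its centre from the start site in kb (x axis) for Glis3, Gli2 and Gli3 (columns) in the 3 libraries (rows), with gene spans in grey. Glis3 shows many low LSD1(OE) peaks, Gli2 its highest 2 in LSD1(OE) cells at 685 and 542, and Gli3 its highest at the start site in myogenic cells at 553.

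Glis2 and Gli1 are short genes whose Lsd1 peaks gathered around the start site. Glis2, on chromosome 16 from 4594713 to 4615957 on the plus strand, held the highest-scored peak of all 6 genes. That myogenic peak of 371 tags and a score of 1550 was centred 1971 bp into the gene in intron 1, just inside the promoter limit. The matching LSD1(OE) peak of 310 tags and a score of 786 was centred at 2110 bp, just outside it. In wild-type adipogenic cells the same stretch was called as 2 abutting peaks of 195 and 82 tags at scores of 391 and 86.7. Densities over this region were 1.97 (myogenic), 1.35 (adipogenic) and 1.63 (LSD1(OE)). They gave ratios of 0.684 for adipogenic to myogenic (0.583 to 0.801), 0.826 for LSD1(OE) to myogenic (0.708 to 0.963) and 1.21 for LSD1(OE) to adipogenic (1.02 to 1.43). In the same order, the medians over all such regions of the series were 0.800, 0.879 and 1.09.

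Upstream of Glis2 lay 2 more regions with peaks in all 3 libraries. The first, 7.81 kb upstream, held 227 tags in 1 myogenic peak, 173 in 1 wild-type adipogenic peak, and 115 and 36 in 2 LSD1(OE) peaks. Its densities were 1.82, 1.21 and 1.32, so the myogenic one was the highest, and the ratios to it were 0.666 for adipogenic (0.543 to 0.815) and 0.724 for LSD1(OE) (0.585 to 0.893). The other, 1.17 kb upstream, held 115, 109 and 43 tags, and all intervals of its ratios included 1. Only this last LSD1(OE) peak, at a score of 73.7, places Glis2 among the genes with an LSD1(OE) promoter peak by centre. A myogenic peak of 46 tags lay 11993 bp into the gene.

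Gli1, both activator and target of the pathway, lies on the minus strand of chromosome 10 from 127329882 to 127341579. Myogenic cells held 2 promoter peaks, of 87 tags centred 681.5 bp into the gene (score 246) and of 53 tags 864 bp upstream (score 143). Wild-type adipogenic cells held 1, of 63 tags 557 bp into the gene, at a score of 71.0 its only peak. LSD1(OE) cells held 1 of 58 tags 781.5 bp upstream, at a score of 116. The highest-scored Gli1 peaks lay just past the promoter limit in intron 2, with 116 myogenic tags at 2203 bp (score 425) and 101 LSD1(OE) tags at 2165 bp (score 264). No Gli1 region had a peak in all 3 libraries, and the 3 ratios that could be formed ran from 0.750 to 0.880 with intervals that included 1. A myogenic peak of 33 tags 8758.5 bp upstream lies nearer to the start site of Inhbe.

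**Figure D4:**
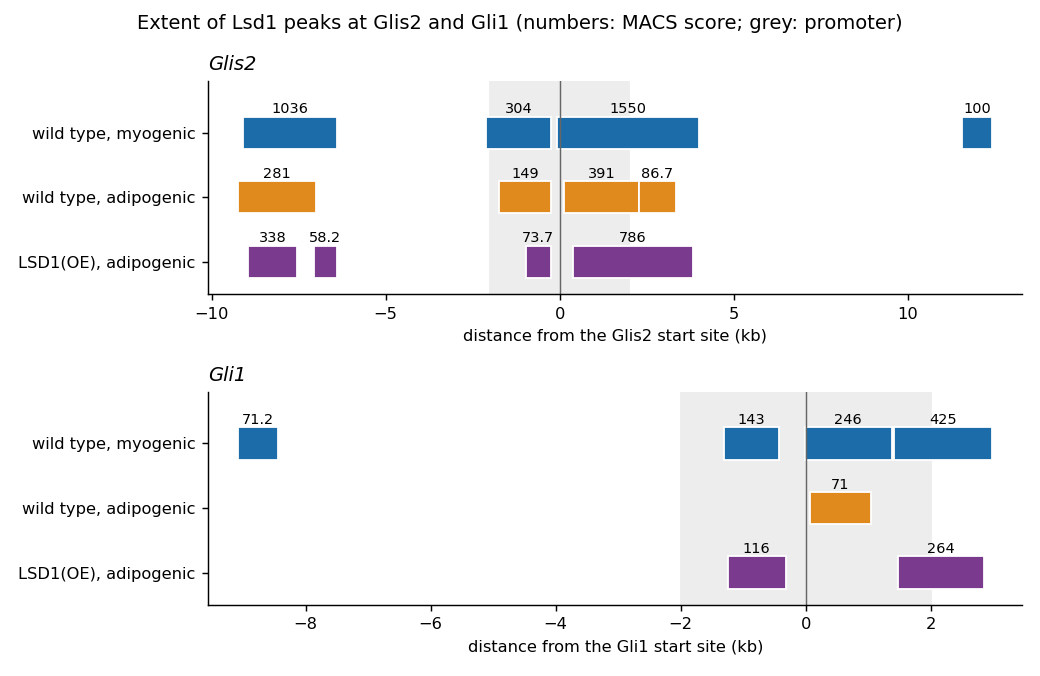
Extent of each Lsd1 peak (bars) along the distance from the start site in kb (x axis) at Glis2 and Gli1, with 1 row per library, the MACS score above each bar and the promoter in grey. Myogenic scores are the highest in both genes, at 1550 and 425, and the lone adipogenic Gli1 peak scores 71.0.

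Joined across libraries, the 87 peaks formed 55 regions, of which 8 (14.5%) had a peak in all 3 libraries, beside 20.6% of all 56729 regions of the series. The region at the Glis3 start site is among the 8 by chaining only. Regions found in LSD1(OE) cells alone made up 24 of the 55 (43.6%), beside 20.8% of all regions, a share not matched for gene length or distance from a start site. Of these 24, 9 were at Glis1 and 12 at Glis3, with none at Glis2 or Gli1. Their median score was 78.0, and 33.3% scored at least 100, beside a median of 68.9 and 25.8% over all such regions. Regions of myogenic cells alone were 9 (16.4%), beside 35.9% of all. Regions of 1 gene are neighbours and not independent of each other.

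Density in regions with peaks in both libraries gives the comparison least tied to the length of the peak lists, although each library has its own peak borders. A wider peak with more tags need not have a much higher density. At Gli2 +71.7 kb LSD1(OE) cells held 212 tags over 2520 bp and myogenic cells 67 over 1181 bp, at a density ratio of 1.24. The ratios therefore compare peaks as called and not equal stretches of sequence. Over 13053 regions of the series the median ratio of LSD1(OE) to wild-type adipogenic density was 1.09, and over the 11 regions here 1.21, with 10 of 11 above 1. The interval lay wholly above 1 in 5 of them, at Glis1 (3), Glis2 (1) and Gli2 (1), and above the median of 1.09 in 1, the Gli2 region at +77.0 kb. For LSD1(OE) to myogenic density, the median was 0.879 over 18581 regions and 0.908 over 16 here. Intervals lay above that 0.879 in 4 regions, the Glis1 promoter, Glis1 +190 kb and both Gli2 intronic sites, and under it in 1, the Gli3 promoter. For wild-type adipogenic to myogenic density the medians were 0.800 over 14149 regions and 0.881 over 10 here, and no interval here excluded 0.800. The chained region at the Glis3 start site counts among the 11, 16 and 10 regions, with ratios of 1.09, 0.847 and 0.779. Its adipogenic and myogenic peaks cover different stretches, so its ratios do not compare the same sequence. These intervals cover counting error only, and differences between libraries of the same condition were not measured.

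**Figure D5:**
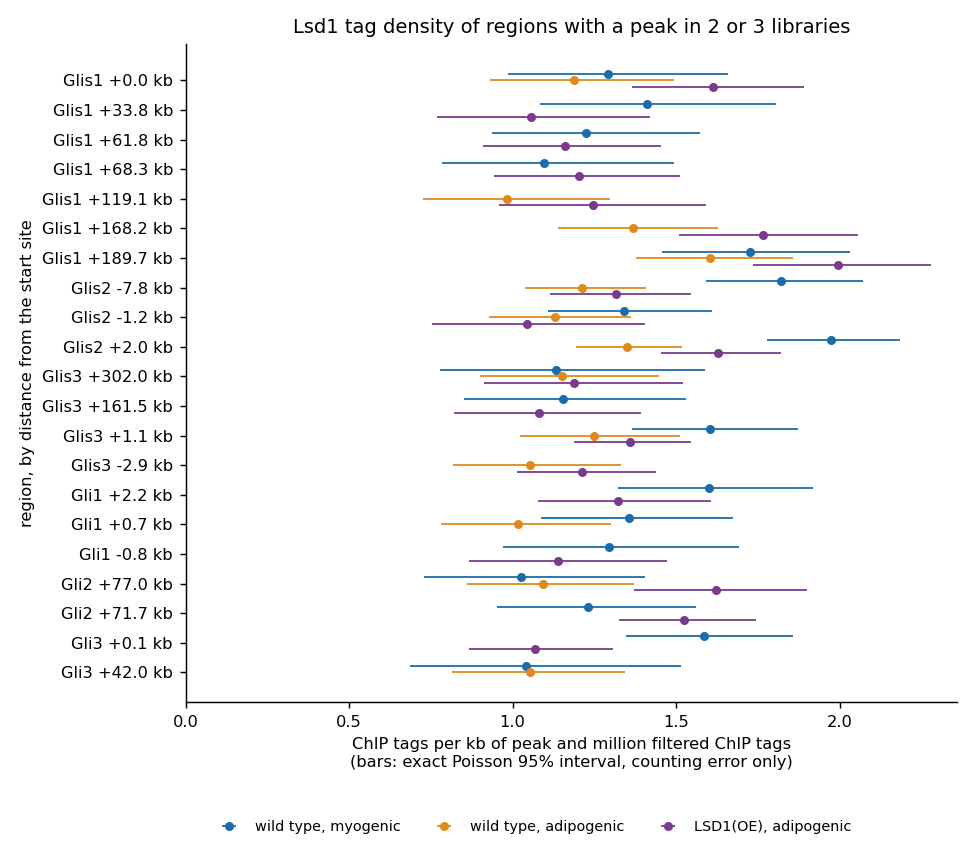
Tags per kb of peak and per 1000000 filtered ChIP tags (x axis) with exact Poisson 95% intervals for the 21 regions with a peak in 2 or 3 libraries (y axis, by gene and distance from the start site). LSD1(OE) is the highest at the Glis1 promoter (1.61), Glis1 +190 kb (1.99) and Gli2 +77.0 kb (1.62), and myogenic cells at Glis2 and the Gli3 promoter (1.59), while at the Glis3 start site the adipogenic and myogenic peaks cover different stretches.

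Sequence around the summits was set beside that of all peaks. In LSD1(OE) cells the median GC content over the 300 bases was 51.3% at member peaks and 52.0% at all peaks, and in myogenic cells 56.0% and 51.3%. The ratio of observed to expected CpG had a median of 0.594, 0.512 and 0.745 over the 7, 4 and 6 member promoter peaks in myogenic, adipogenic and LSD1(OE) cells, beside 0.734, 0.732 and 0.720 over all promoter peaks. The highest member values were 1.02 at the LSD1(OE) summit of the Glis1 promoter and 0.984 at the myogenic summit of the Gli3 promoter. The GLI motif was found in 0 of 87 member windows and in 0.272%, 0.228% and 0.259% of all peaks of the 3 libraries. The glucocorticoid receptor element was found in none either, and in 0.525%, 0.651% and 0.722% of all peaks. At such low shares few or no matches are to be expected among 87 windows, so the absence of both motifs is not informative. Outside promoters, RUNX matches were in 11 of 20 myogenic, 3 of 11 adipogenic and 12 of 39 LSD1(OE) windows, beside 29.2%, 29.9% and 27.1% of all such peaks. E-boxes were in 5 of 20, 5 of 11 and 7 of 39, beside 28.5%, 34.4% and 28.5%. AP-1 matches were in 7 of 20, 5 of 11 and 9 of 39, beside 23.8%, 27.3% and 22.5%, and TEAD matches in 5 of 20, 1 of 11 and 10 of 39, beside 19.9%, 19.0% and 18.3%. Windows of different libraries at 1 site overlap, so these counts repeat some sequence.

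Genes that act before and after the Gli proteins were read from lists, by promoter peaks in myogenic, adipogenic and LSD1(OE) cells and beside the shares over all genes given above. Of 9 genes of hedgehog reception, 6, 3 and 7 had a promoter peak. The highest were Gas1, a co-receptor (scores 1908, 413 and 910), Ptch1, the receptor (1257, 119 and 967), and Smo, the signal transducer (563, 73.6 and 149). Their tags were 344, 182 and 264 at Gas1, 330, 85 and 314 at Ptch1, and 149, 84 and 72 at Smo. The adipogenic peak thus had the lowest score in each and the fewest tags at Gas1 and Ptch1 only. Tags of the listed genes are not scaled to the depth of the library, which was greatest for wild-type adipogenic cells. Of 8 genes for ligands and their release, 3, 1 and 2 had one, led by Disp1, which releases the ligand (305, 145 and 114), Hhat, which palmitoylates it (282, none and 130), and the ligand gene Dhh (81.6 in myogenic cells alone). Disp1 held 83, 89 and 57 tags, Hhat 97 and 67, and Dhh 46. Shh and Ihh had none.

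Of 10 intracellular mediators, 9, 5 and 8 had a promoter peak, led by Fbxw11, a ubiquitin ligase subunit (1204, 88.0 and 377), Gsk3b (841, 102 and 258) and Prkaca (777, 85.6 and 255), kinases that phosphorylate Gli proteins. Sufu, which holds Gli proteins in the cytoplasm, had 620, 119 and 251. Tags were 200, 75 and 121 at Fbxw11, 218, 106 and 92 at Gsk3b, 217, 140 and 102 at Prkaca, and 144, 93 and 77 at Sufu. At the last 3 genes the adipogenic peak thus held more tags than the LSD1(OE) peak at a lower score. These tags are not scaled to depth, and the filtered ChIP tags were 63915769 for adipogenic and 55193310 for LSD1(OE) cells. The raw counts therefore do not show more binding in adipogenic cells. Of 9 hedgehog targets, Gli1 and Ptch1 included, 5, 4 and 7 had one. Besides Ptch1 the highest were Ccnd1, a cyclin (588, 61.6 and 221), and Hhip, which binds the ligand (486, none and 80.6). Ccnd1 held 138, 55 and 86 tags, and Hhip 130 and 38. Of the 5 Zic genes, the nearest zinc finger relatives, only Zic2 showed one, which was listed for LSD1(OE) cells with 45 tags and scored 71.5.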

How the data were processed

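Lsd1 ChIP-seq of C2C12 cells was used, with 1 ChIP and 1 input library in each of 3 conditions, grouped by the sample labels. Single reads were mapped to mm10 by the authors, who called peaks per ChIP library over the matching input (Bowtie2 and MACS 1.41 per the labels). The file headers name MACS 1.4.2, a p cut-off of 1e-05 and scaling of the smaller library. The deposited tag count of a peak is a count of ChIP tags without normalization, the deposited score is the negative log10 of the p-value times 10, the deposited fold enrichment is a ratio over local background and was not used because it is not comparable between these libraries, and the deposited FDR is in percent. All peaks had an FDR under 1%.

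The deposited lists were joined to curated RefSeq transcripts of GRCm38.p6 (31647 start sites of 26180 genes). Peaks were joined into regions by an overlap of at least 1 bp. Density is tags per kb and per 1000000 filtered ChIP tags, with exact Poisson 95% intervals and exact conditional (Clopper-Pearson) intervals of ratios, which cover counting error only. Without replicates no test was made. Assignment and joining were tested on simulated data. Sequences came from the RefSeq genome. The genes, lists and motifs were chosen with earlier results of these data known. Named were every promoter peak and the highest-scored peak of each gene and library, every Glis1 peak, and the 3 genes of each list with the highest promoter score. Sufu, the other peaks of the 6 genes and the genes named for lying nearest to a peak or without a peak were added after values were seen. Alternatives changed peak thresholds, list size, tag scaling, windows and overlap. RNA levels and reads were not analysed here. Python 3.11.15, NumPy 2.4.6, pandas 2.3.3, SciPy 1.17.1, pysam 0.24.0 and matplotlib 3.10.9 were used.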

Additional observations from a re-analysis of the deposited data

How the results depend on the processing

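The order of the 6 genes' peak totals, LSD1(OE) above myogenic above wild-type adipogenic cells, held under every alternative but equal list lengths. The main totals were 27 (myogenic), 15 (adipogenic) and 45 (LSD1(OE)). They were 13, 6 and 21 with an FDR of at most 0.1%, 15, 8 and 25 with a score of at least 100, and 15, 13 and 27 with ChIP tags not scaled up. With the 18893 highest-scored peaks of each list they were 11, 15 and 26, so that myogenic cells fell behind adipogenic ones. They were 49, 23 and 61 with 50 kb either side, and 15, 9 and 21 with only peaks nearest to a start site of the gene. The gene span alone (22, 11 and 39) and summits in place of centres (27, 15 and 45) moved no total by over 1.5 times.

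LSD1(OE) peaks at Glis1 and Glis3 were recounted under the same alternatives. Against myogenic cells they were 9 to 4 and 5 to 1 (FDR), 10 to 4 and 7 to 2 (score), 11 to 3 and 7 to 1 (equal lists), and 11 to 4 and 8 to 2 (tags not scaled up). The share of genes with at least 2 times as many, recounted as an alternative added after seeing the data, was 4.00%, 6.21%, 13.2% and 6.48%. With only peaks nearest to a start site of the gene, the LSD1(OE), myogenic and adipogenic counts were 10, 5 and 2 at Glis1. At Glis3 they were 2, 1 and 1, but this setting cannot judge the Glis3 difference. The start site of D930032P07Rik lies inside Glis3 and close to its start site. Peaks further into the gene are therefore dropped by position, whatever their signal. With equal lists, LSD1(OE) to adipogenic counts were 11 to 5 and 7 to 3, under the ratio of 3, as was Glis3 with tags not scaled up (8 to 3). The share of genes with at least 3 times as many ran from 3.31% to 16.3%.

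Genes with a promoter peak in adipogenic cells fell from 3 to 1, Glis2, with the FDR of at most 0.1%, and were 2 to 4 otherwise. Counts were 4 to 5 in myogenic and 4 to 6 in LSD1(OE) cells. Glis2 left the LSD1(OE) genes under the FDR, score, equal-list and unscaled settings, Gli1 under the FDR setting, and Glis3 joined the adipogenic genes within 5000 bp. Gli2 kept its promoter peak in LSD1(OE) cells alone in each of these settings. Regions with a peak in all 3 libraries were 8, and 4 (FDR), 5 (score), 5 (equal lists) and 5 (tags not scaled up), while an overlap of at least 50% of the shorter peak gave 7 and the gene span alone 6. No paired analysis was possible because each condition has 1 library and no result comes from a test.

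Depth limits weak peaks: the listed peaks with the fewest tags held 27 to 35, depending on the library. Regions near the threshold, such as the 9 of 12 LSD1(OE)-only regions of Glis3 that scored under 100, rest on small counts. A single library per condition leaves the spread between libraries unknown.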
